A study of Codonopsis pilosula with 12 samples.

Results

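Fatty acid desaturases and acetylenases were studied in the leaf transcriptome of Codonopsis pilosula, a medicinal herb of the Campanulaceae. The family comprised 40 of the 55270 assembled genes. A gene was taken as a member when the name of its best protein hit contained a desaturase term (fatty acid desaturase, acyl-lipid desaturase, oleate desaturase, acyl-carrier-protein desaturase or stearoyl) or the word acetylenase. Carotene and phytoene desaturases and hits outside land plants were to be left out, and 0 genes met either exclusion. The terms themselves use no expression value, but the family was picked for study with earlier results of these data known.

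The leaves came from 4-week-old pot-grown seedlings of the cultivars W1 (Weidang No. 1) and G1 (Gandang No. 1), and RNA was sequenced in 12 libraries. The groups were CW1 (W1) and CG1 (G1), sampled under normal watering on day 0, and DW1 (W1) and DG1 (G1), sampled on day 4 after water was withheld, with 3 libraries in each. No watered plant was sampled on day 4, so the effect of drought and that of 4 days of growth cannot be told apart. One treatment label of CW1 replicate 1 names drought although its title places it among the controls, and the labels and the study's methods differ on how many pots went into a sample, so n = 3 counts libraries and the spread between them may be in part technical.

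These enzymes set how many carbon-carbon bonds of a fatty acid are unsaturated, and thereby the fluidity of membranes and the supply of signal molecules made from linolenic acid. In plants, a soluble stearoyl-ACP desaturase of the plastid makes oleic acid. Membrane-bound desaturases then act in parallel in the endoplasmic reticulum (FAD2 on oleate, FAD3 on linoleate) and in the plastid (FAD6 and FAD7), the plastid enzymes taking electrons from ferredoxin and those of the endoplasmic reticulum from cytochrome b5. Diverged copies of FAD2 are known in the daisy family and its relatives as acetylenases, which introduce a carbon-carbon bond of the acetylenic kind, or as conjugases such as DES8.11 of Calendula; they stand at the start of polyacetylene synthesis, and polyacetylene glycosides such as lobetyolin are known constituents of Codonopsis.

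By annotation, the members fell into 16 FAD2-type genes, 9 genes annotated as acetylenases, 4 omega-3 desaturases, 4 ADS-type desaturases, 4 stearoyl-ACP desaturases and 1 gene each for a plastid omega-6 desaturase, FAD4 and the cytochrome b5-fused desaturase sld1. The FAD2-type and acetylenase classes were hard to part by name: 16 members shared the best hit DES8.11, and 25 members carried the orthology entry K10256 of the omega-6 desaturases. Many of the FAD2-type and acetylenase genes were short, since 14 of the 25 were shorter than 600 bp and all 25 fell in 11 assembly clusters. Some may therefore be pieces of one transcript or share reads with a close copy, and their number is not the number of genes in the plant. Gene names below are those of the best hit in another species.

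Expected counts per library summed to 12415229 to 22837632. The leaf label was checked on 29 genes for Rubisco small chains and chlorophyll a-b binding proteins, whose summed level lay between 68284 and 133747 TPM (transcript abundance scaled for gene length and library total) in 11 libraries and at 13501 TPM in DG1 replicate 1. In that library, genes whose best hit was a vertebrate protein summed to 70230 TPM, against 16122 to 22630 TPM in the other libraries. CG1 replicate 2 stood apart in another list, 26 rapid wound and touch response genes, with 2642 TPM. CG1 replicates 1 and 3 had 603 and 1914 TPM, DG1 replicate 1 had 705 TPM, and the other 8 libraries had 149 to 307 TPM. The summed levels of the lists for root (71.1 to 206 TPM), vascular (167 to 657 TPM), epidermis and guard cell (28.8 to 135 TPM) and seed and oil body (239 to 686 TPM) were far below that of the leaf list in every library.

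Together the 40 members reached 879, 1047 and 1174 TPM in CW1 and 1475 and 1563 TPM in CG1 replicates 1 and 3. Shown apart from these watered libraries, CG1 replicate 2 had 3234 TPM, the highest total of all 12. The drought libraries had 826 to 1188 TPM in DW1 and 836 to 1216 TPM in DG1. Of the 40 members, 35 passed the filter on low counts and were tested, and the 5 others are described at the end.

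**Figure D1:**
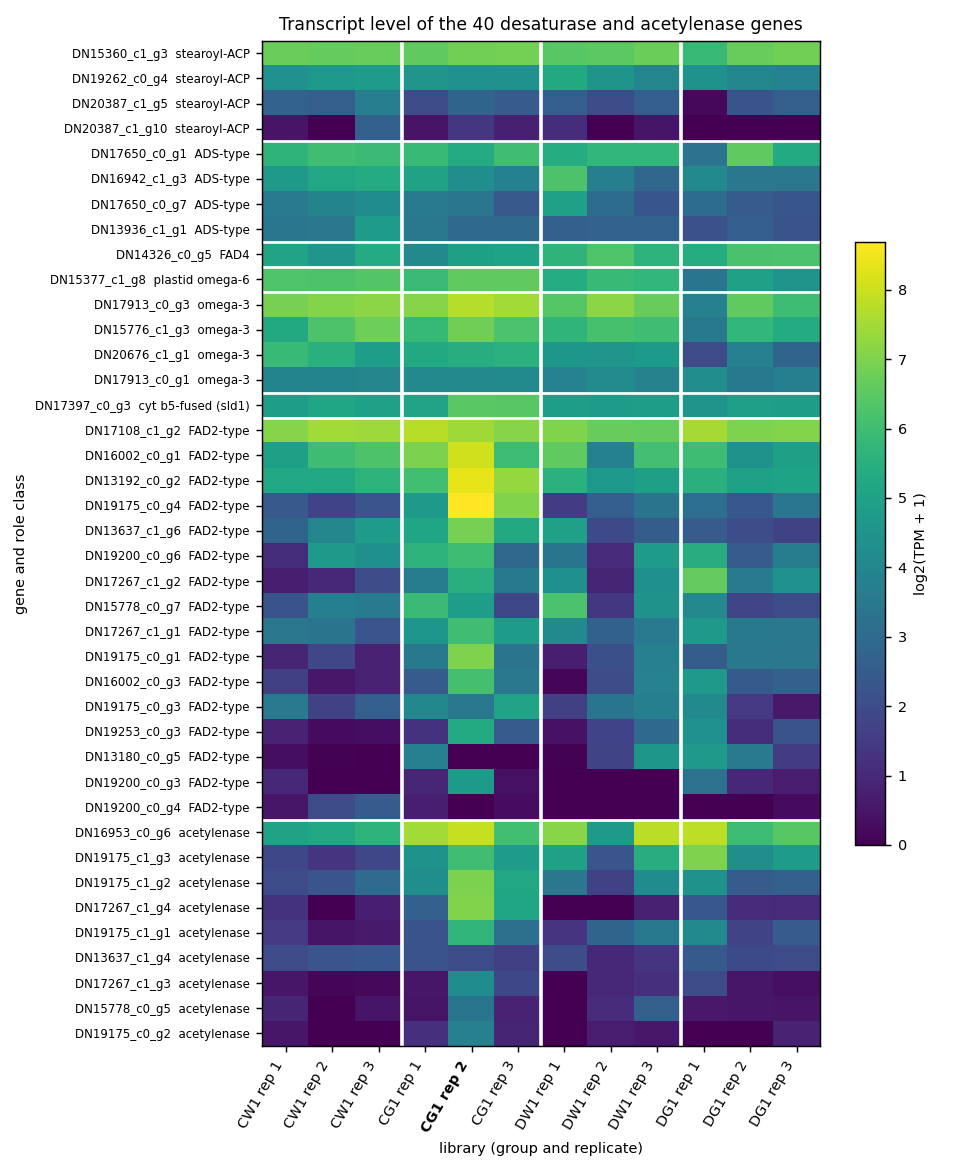
Level of each of the 40 members (rows, grouped by role class) in each of the 12 libraries (columns, by group and replicate; CG1 replicate 2 in bold) as log2(TPM + 1). The lower part of the panel, FAD2-type and acetylenase genes, is brightest in CG1 replicate 2, while the plastid omega-6 row and 3 of the 4 omega-3 rows are darkest in DG1.

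The first question was how the family responded to drought in G1. Between DG1 and CG1, 7 of the 35 tested members fell and 1 rose (adjusted p under 0.05, edgeR quasi-likelihood test with Benjamini-Hochberg adjustment over all 29168 genes tested). Among all genes tested, 12.3% fell and 11.5% rose. The median log2 fold change was -1.24 over the members and 0.01 over all genes tested, and 30 of the 35 members had a negative value. Without CG1 replicate 2 the members' median was -0.40, with 27 negative, and without both that library and DG1 replicate 1 it was -0.81. In 10 members all 3 DG1 libraries lay below all 3 CG1 libraries, and in 1 member they lay above, whereas 19.0% and 16.4% of all genes tested did so.

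The members that fell included an omega-3 and an omega-6 desaturase with plastid enzymes among their protein hits. DN20676_c1_g1 is an omega-3 desaturase whose hits name FAD7 of sesame and an endoplasmic reticulum enzyme of artichoke, so its compartment is not settled by annotation. Its level was 38.2, 41.4 and 46.4 TPM in CG1 and 3.01, 13.3 and 5.96 TPM in DG1. Every droughted library was below every watered one, and the log2 fold change was -2.80 ± 0.46 (SE, adjusted p = 0.003075, edgeR). The call held with each of the 12 libraries left out in turn (adjusted p 0.002047 to 0.01697).

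DN15377_c1_g8 is the only plastid omega-6 desaturase, the FAD6-type enzyme that makes linoleate in plastid lipids. It had 60.4, 94.0 and 94.6 TPM in CG1 and 9.5, 30.6 and 21.6 TPM in DG1, again without overlap. The fall was 2.03 ± 0.42 on the log2 scale (SE, adjusted p = 0.007515, edgeR), and it also held without any single library (adjusted p 0.005665 to 0.02692).

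The 3 remaining omega-3 genes did not pass the edgeR test with all libraries. DN17913_c0_g3 (FAD7A-1), the most abundant of them, had 137, 211 and 180 TPM in CG1 and 12.8, 94.4 and 62.8 TPM in DG1, with a log2 fold change of -1.63 ± 0.57 (SE, adjusted p = 0.060, edgeR). It passed by DESeq2 (adjusted p = 0.01746), by limma-trend (0.02877) and in edgeR without DG1 replicate 2 (0.03069). DN15776_c1_g3 had 55.3, 112 and 73.4 TPM in CG1 and 10.4, 53.3 and 40.1 TPM in DG1, with -1.24 ± 0.58 (SE, adjusted p = 0.144, edgeR). In both genes the groups did not overlap, and the widest gap came from DG1 replicate 1. DN17913_c0_g1 stayed between 10.4 and 18.0 TPM in all 12 libraries.

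DG1 replicate 1, the library low in leaf genes, was the lowest of the 12 libraries in 9 of the 35 tested members, and none of these 9 was of the FAD2 or acetylenase type; among all genes tested this held for 15.8%. The 9 were 3 omega-3 genes, the plastid omega-6 gene, sld1, 2 ADS-type and 2 stearoyl-ACP genes. Without that library the fall of the plastid omega-6 gene DN15377_c1_g8 was 1.67 ± 0.35 on the log2 scale (SE, adjusted p = 0.01326, edgeR) and that of DN20676_c1_g1 was 2.40 ± 0.33 (SE, adjusted p = 0.003671, edgeR).

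**Figure D2:**
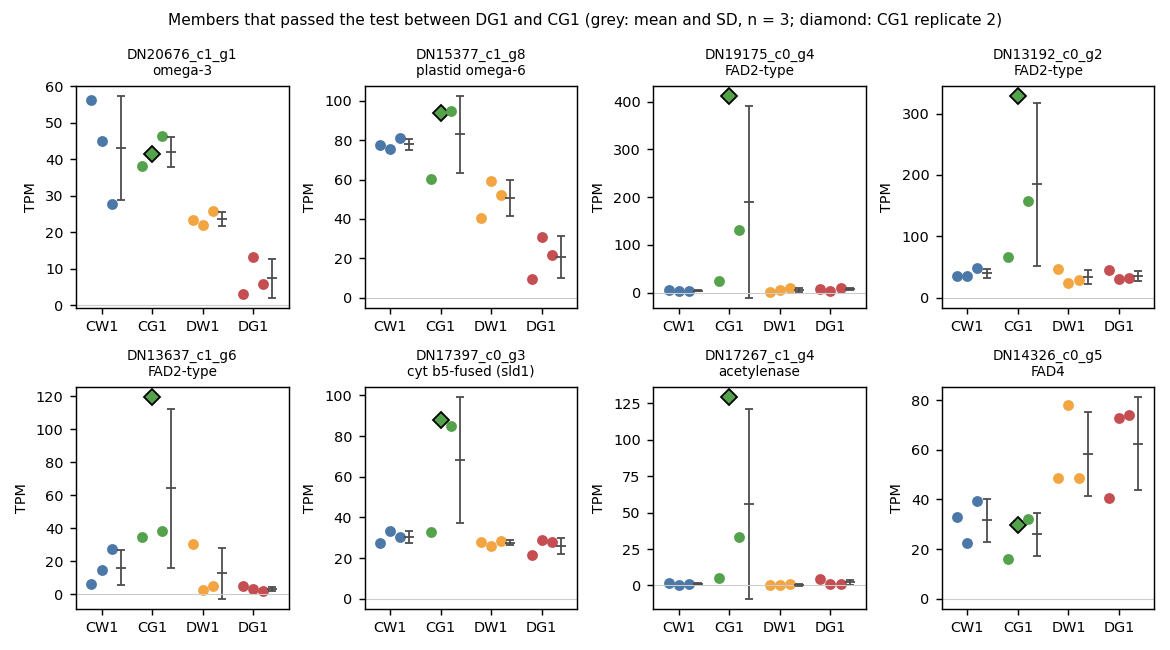
TPM in each library (points, 3 replicates per group, replicate 1 to 3 from left to right; diamond, CG1 replicate 2) with the group mean and SD (grey, n = 3) for the 8 members that passed the test between DG1 and CG1. In DN20676_c1_g1 and DN15377_c1_g8 both watered groups are high, whereas in DN19175_c0_g4, DN13192_c0_g2 and DN17267_c1_g4 only CG1 lies above the other groups.

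Among the remaining falls, DN19175_c0_g4, DN13192_c0_g2 and DN17267_c1_g4 had another shape, with only CG1 above the other groups. DN19175_c0_g4, a DES8.11-like gene of 593 bp, had 24.2 and 132 TPM in CG1 replicates 1 and 3, and 413 TPM in replicate 2. In DG1 it had 7.93, 4.19 and 9.58 TPM, and in both W1 groups it stayed between 1.87 and 9.26 TPM. The log2 fold change in DG1 was -4.80 ± 1.00 (SE, adjusted p = 0.00781, edgeR) and -3.39 ± 0.82 without CG1 replicate 2 (adjusted p = 0.02378, edgeR).

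DN13192_c0_g2, whose hits are omega-6 desaturases of the endoplasmic reticulum, the FAD2 step, had 66.1 and 158 TPM in CG1 replicates 1 and 3 and 329 TPM in replicate 2. In DG1 it had 44.7, 30.5 and 31.8 TPM. It fell by 2.48 ± 0.54 on the log2 scale (SE, adjusted p = 0.009491, edgeR), and by 1.63 ± 0.41 without CG1 replicate 2 (adjusted p = 0.02787, edgeR).

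DN13637_c1_g6, a DES8.11-like gene of 1438 bp, had 34.6 and 38.3 TPM in CG1 replicates 1 and 3 and 120 TPM in replicate 2. In DG1 it had 4.8, 3.16 and 2.19 TPM. Here the lowest watered G1 library was above every droughted G1 library, and the log2 fold change was -4.34 ± 0.98 (SE, adjusted p = 0.01094, edgeR) with all libraries and -3.34 ± 0.90 without CG1 replicate 2 (adjusted p = 0.03422, edgeR). Without that library the log2 difference between CG1 and CW1 was 1.24 ± 0.86 (SE, adjusted p = 0.8205, edgeR). Between DG1 and DW1 it was -1.76 ± 0.81 (SE, adjusted p = 0.3369, edgeR).

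The acetylenase DN17267_c1_g4, a fragment of 381 bp, had 5.27 and 33.5 TPM in CG1 replicates 1 and 3 and 130 TPM in replicate 2. In DG1 it had 4.15, 1.14 and 1.04 TPM, from 5 to 16 counts a library. The log2 fold change was -4.91 ± 1.35 (SE, adjusted p = 0.02486, edgeR). This call was lost without CG1 replicate 2, DG1 replicate 2 or DG1 replicate 3 (adjusted p up to 0.1036).

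The sld1-like gene DN17397_c0_g3 resembles the sunflower enzyme that desaturates the long-chain base of sphingolipids and carries its own cytochrome b5 domain. Its level was 32.7, 87.7 and 84.9 TPM in CG1 and 21.4, 28.7 and 27.7 TPM in DG1. CG1 replicate 1 was close to the W1 libraries (26.1 to 33.3 TPM), and CG1 replicates 2 and 3 were well above them. The fall was 1.44 ± 0.38 on the log2 scale (SE, adjusted p = 0.02023, edgeR), and it was lost without CG1 replicate 2 or 3 or DG1 replicate 1 or 3 (adjusted p up to 0.07265).

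With both CG1 replicate 2 and DG1 replicate 1 left out, a choice made after the data were seen, 4 members fell and 1 rose, while 6.32% of all genes tested fell and 5.08% rose. Of the 8 calls, those of DN20676_c1_g1, DN15377_c1_g8, DN13192_c0_g2 and DN14326_c0_g5 were kept. DN19175_c0_g4 had an adjusted p of 0.05517 there, DN13637_c1_g6 0.06095, DN17267_c1_g4 0.1002 and DN17397_c0_g3 0.1611 (all edgeR). The FAD2-type fragment DN19175_c0_g3, named here after its values were seen, was called in their place, with a log2 fold change of -4.36 ± 1.15 (SE, adjusted p = 0.04334, edgeR).

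A single member rose. DN14326_c0_g5 is the FAD4-type desaturase, which in Arabidopsis puts a trans bond into the palmitate of plastid phosphatidylglycerol. It had 16.0, 29.7 and 32.0 TPM in CG1 and 40.7, 73.0 and 73.9 TPM in DG1. The groups did not overlap and the log2 fold change was 1.24 ± 0.40 (SE, adjusted p = 0.04672, edgeR), close to the threshold. The call was kept in 4 of the 12 fits that each left out a library. It was lost without CW1 replicate 1 or 3, any CG1 replicate, DW1 replicate 3, or DG1 replicate 2 or 3 (adjusted p up to 0.1243), with no filter (0.07755) and with 2 groups only (0.09795). In W1 the same gene had 33.0, 22.3 and 39.4 TPM in CW1 and 48.8, 77.9 and 48.6 TPM in DW1, also without overlap, with 0.97 ± 0.40 on the log2 scale (SE, adjusted p = 0.198, edgeR).

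No stearoyl-ACP or ADS-type member passed the edgeR test in G1 with all libraries. Outside the members, 6 of 12 tested desaturase-domain genes, a list made up mostly of ADS3-like genes, fell, beside 12.3% of all genes tested. The main stearoyl-ACP desaturase, DN15360_c1_g3, of the type that makes oleic acid, had 94.1, 115 and 117 TPM in CG1 and 58.3, 101 and 113 TPM in DG1, with -0.26 ± 0.28 (log2, SE). The ADS3-like gene DN17650_c0_g1, related to an Arabidopsis enzyme acting on the palmitate of a galactolipid, had 58.8, 40.1 and 64.3 TPM in CG1 and 8.88, 94.8 and 39.0 TPM in DG1. Its droughted libraries spanned the watered ones on both sides, and the log2 fold change was -0.10 ± 0.62 (SE).

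In W1, 0 of the 35 tested members were called in either direction between DW1 and CW1 by edgeR, where 0.771% of all genes tested rose and 0.799% fell. An unadjusted edgeR p under 0.05 was found in 8 members, with no share over all genes at hand. DESeq2 called 3 members higher and 1 lower, beside 1501 higher and 1817 lower of the 29168 genes. The median log2 fold change was 0.08 over the members and 0.02 over all genes tested. In 5 members all DW1 libraries lay below all CW1 libraries and in 2 they lay above, beside 13.7% and 11.3% of all genes tested.

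The lowest adjusted p in W1 belonged to the acetylenase DN19175_c1_g3, a fragment of 446 bp. It had 2.68, 1.51 and 2.57 TPM in CW1 and 30.6, 3.86 and 41.5 TPM in DW1, so that replicate 2 of DW1 was just above the watered libraries and the others far above them (log2 fold change 3.57 ± 0.99, SE, adjusted p = 0.08531, edgeR). The most abundant acetylenase, DN16953_c0_g6, had the same order, with 31.3, 34.8 and 48.4 TPM in CW1 and 140, 24.4 and 221 TPM in DW1 (1.69 ± 0.77, SE, adjusted p = 0.235, edgeR). DW1 replicate 2 was the lowest of the 3 DW1 libraries in 11 of the 21 tested FAD2-type and acetylenase genes, and in 29.2% of all genes tested.

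The plastid omega-6 desaturase DN15377_c1_g8 had 77.3, 75.4 and 80.9 TPM in CW1 and 40.5, 59.0 and 52.4 TPM in DW1. The groups did not overlap, and the log2 fold change was -0.52 ± 0.40 (SE, adjusted p = 0.490, edgeR). The omega-3 gene DN20676_c1_g1 had 56.4, 45.2 and 27.9 TPM in CW1 and 23.5, 22.0 and 25.9 TPM in DW1 (-0.87 ± 0.43, SE, adjusted p = 0.278, edgeR). The ADS3-like gene DN13936_c1_g1 had 9.63, 9.92 and 26.3 TPM in CW1 and 5.29, 5.67 and 5.63 TPM in DW1, likewise without overlap (-1.39 ± 0.41, SE, adjusted p = 0.09342, edgeR).

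**Figure D3:**
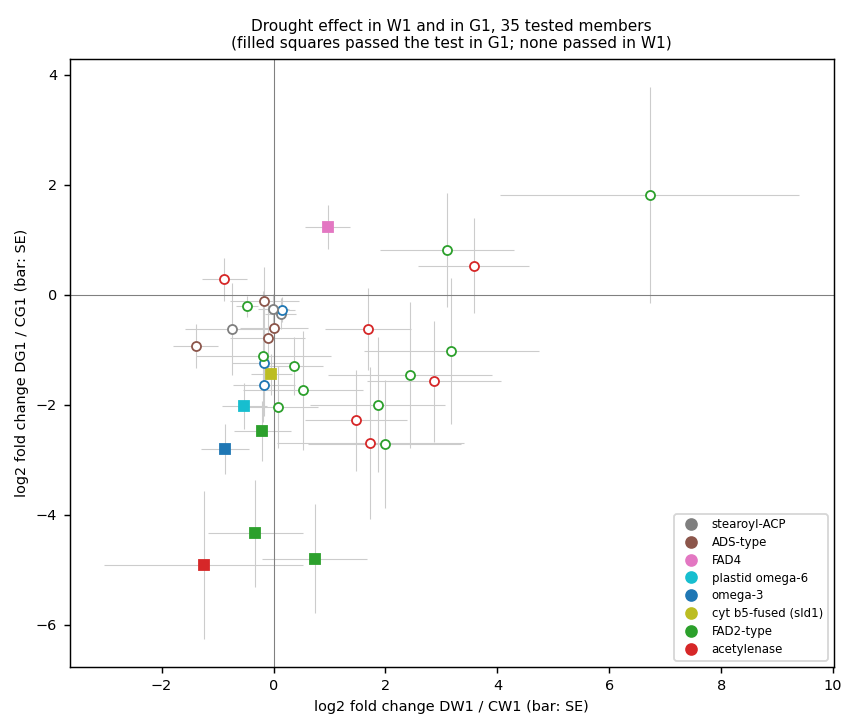
Log2 fold change under drought in W1 (DW1 against CW1, horizontal) and in G1 (DG1 against CG1, vertical) for the 35 tested members, coloured by role class, with SE bars; filled squares passed the test in G1, and no member passed in W1. Of the FAD2-type and acetylenase genes, 15 of 21 lie right of 0 and 17 of 21 below 0.

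Whether the response differed between cultivars was tested directly, by subtracting the drought effect of W1 from that of G1. By edgeR 0 of the 35 members passed in either direction, where 0.0137% of all genes tested were lower and 0.00% higher. An unadjusted edgeR p under 0.05 was found in 12 members, again with no share over all genes to read it against. DESeq2 called 244 of the 29168 genes lower and 125 higher, with 1 member among those lower, DN19175_c0_g4 (adjusted p = 0.002672). In edgeR that gene had a difference of -5.53 ± 1.34 on the log2 scale (SE) and the lowest adjusted p among members, 0.376. Of the 35 differences 29 were negative, with a median of -1.93 over members and -0.01 over all genes tested. Without CG1 replicate 2, 30 were negative and the median was -1.27. Without CG1 replicate 1, edgeR called 3 members lower, DN13192_c0_g2, DN17397_c0_g3 and DN19175_c0_g4 (adjusted p = 0.02751, 0.009955 and 0.01887). Over all genes that fit called 285 lower and 45 higher, against 4 and 0 with all libraries. The calls in this test thus depended on the CG1 libraries used.

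The second question was how the cultivars differed in watered leaves. Between CG1 and CW1, 1 of the 35 tested members was higher in G1 and 0 were lower by edgeR, beside 0.377% and 0.0651% of all genes tested. An unadjusted edgeR p under 0.05 was found in 15 members, again with no share over all genes to read it against. DESeq2 called 12 members higher, beside 951 higher and 465 lower of the 29168 genes. The median log2 fold change was 1.54 over the members, 3.79 over the 21 tested FAD2-type and acetylenase genes, 0.22 over the 14 tested genes of other roles and -0.04 over all genes tested. It was 1.10 over the members and 2.45 over the FAD2-type and acetylenase genes without CG1 replicate 2. The groups separated fully in 14 members, all with CG1 above CW1, which was so in 6.16% of all genes tested. Of these 14, 13 were FAD2-type or acetylenase genes.

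The called gene was DN19175_c0_g4, with 4.39, 2.33 and 3.84 TPM in CW1 against the CG1 values given above. The lowest CG1 library was above the highest CW1 library, and the log2 difference was 5.92 ± 1.06 (SE, adjusted p = 0.04481, edgeR). This call was kept in 3 of the 12 fits with a library left out, and lost without any CW1 replicate or without replicate 2 or 3 of CG1, DW1 or DG1 (adjusted p up to 0.2092). Without CG1 replicate 2 the difference was 4.51 ± 0.86 (adjusted p = 0.119, edgeR).

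With CG1 replicate 2 set apart, CG1 replicates 1 and 3 both exceeded all 3 CW1 libraries in 15 of the 35 tested members and in 14 of the 21 of FAD2 or acetylenase type, beside 9.17% of all genes tested. The acetylenase DN19175_c1_g3 had 20.4 and 26.1 TPM in these libraries, and 1.51 to 2.68 TPM in CW1. The acetylenase DN19175_c1_g2 had 19.0 and 34.9 TPM, and 2.97 to 7.25 TPM in CW1. The acetylenase DN16953_c0_g6 had 179 and 65.0 TPM, and 31.3 to 48.4 TPM in CW1. No member passed the edgeR test without replicate 2, but few genes of any kind did. In that fit 14 of all genes tested were higher in CG1 than in CW1 and 2 were lower, against 110 and 19 with all libraries.

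CG1 replicate 2 itself was the highest of the 12 libraries in 17 of the 35 tested members, 14 of them of FAD2 or acetylenase type, beside 5.42% of all genes tested. It was above the 5 other watered libraries in 19 of the 35, beside 10.1%. Its ratio to the mean of CG1 replicates 1 and 3, in TPM, had a median of 4.69 over the 9 acetylenases, 2.90 over the 16 FAD2-type genes, 1.15 over the other roles and 0.779 over all genes tested.

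The acetylenase DN19175_c1_g2 shows the size of this gap, with 126 TPM in replicate 2. DN19175_c0_g1, a FAD2-type fragment of 210 bp named here after its values were seen, had 127 TPM in replicate 2 against 10.4 and 9.06 TPM in the others, the widest ratio of any member. The main FAD2 gene was not highest there, since DN17108_c1_g2 had 174 TPM in replicate 2 and 216 and 136 TPM in replicates 1 and 3. The wound and touch list was also highest in CG1 replicate 2 and next highest in CG1 replicate 3, and its part in the values of these members was not tested.

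**Figure D4:**
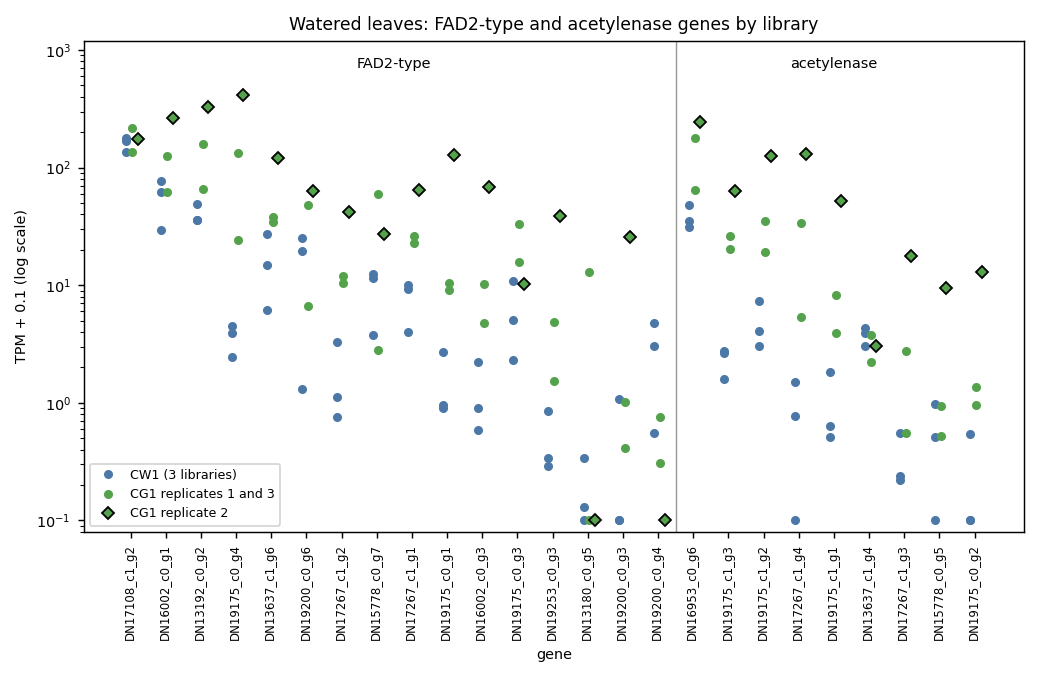
TPM + 0.1 on a log axis for the 25 FAD2-type and acetylenase genes in the 6 watered libraries: CW1 (blue), CG1 replicates 1 and 3 (green circles) and CG1 replicate 2 (outlined diamonds). Both circles lie above all CW1 points in 14 of the 21 tested genes, and the diamonds lie highest in 19 of the 25.

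No member passed the test between cultivars under drought. Between DG1 and DW1, edgeR called 0 of the 35 members in either direction, beside 0.00% higher and 0.00686% lower of all genes tested. An unadjusted edgeR p under 0.05 was found in 4 members, again with no share over all genes to read it against. DESeq2 called 798 of the 29168 genes lower and 609 higher, with 1 member among those lower, DN20676_c1_g1 (adjusted p = 0.02118). That omega-3 gene had 22.0 to 25.9 TPM in DW1 and 3.01 to 13.3 TPM in DG1, which did not overlap, and a log2 difference of -1.60 ± 0.44 (SE, adjusted p = 0.188, edgeR). In all, DG1 lay fully below DW1 in 3 members and fully above in 1, beside 10.8% and 7.14% of all genes tested. DG1 replicate 1 was the highest DG1 library in 19 of the 21 tested FAD2-type and acetylenase genes, beside 43.3% of all genes tested; in DN19175_c1_g3 it had 128 TPM, and DG1 replicates 2 and 3 had 18.8 and 26.1 TPM.

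Averaged over both water states, 0 of 35 members passed between G1 and W1 in edgeR, beside 0.741% higher and 0.559% lower of all genes tested. An unadjusted edgeR p under 0.05 was found in 14 members, again with no share over all genes to read it against. DESeq2 called 11 members higher, beside 1383 higher and 1190 lower of the 29168 genes. The lowest adjusted p was 0.05184, for DN19175_c0_g4 (log2 difference 3.16 ± 0.68, SE, edgeR). Of the 21 tested FAD2-type and acetylenase genes 20 had positive values, with a median of 1.91, which was 1.24 without CG1 replicate 2 and 0.90 without both that library and DG1 replicate 1.

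The most abundant member passed no edgeR test with all libraries. DN17108_c1_g2 is a FAD2 gene of 1607 bp matching the oleate desaturases of Vernonia and Calendula, and its group means were 162 ± 22.2 TPM in CW1, 175 ± 40.1 in CG1, 110 ± 18.8 in DW1 and 149 ± 29.8 in DG1 (SD, n = 3). Its log2 fold change under drought was -0.21 ± 0.20 in G1 and -0.48 ± 0.20 in W1 (SE, adjusted p = 0.469 and 0.191, edgeR). DESeq2 called it higher in G1 averaged over water states (0.41 ± 0.14, SE, adjusted p = 0.03698). The next FAD2 gene, DN16002_c0_g1, was far more variable. It had 29.4, 62.5 and 76.6 TPM in CW1, 125, 266 and 61.4 in CG1, 95.1, 13.2 and 67.8 in DW1 and 62.3, 20.9 and 30.1 in DG1, and no comparison of it passed in edgeR with all libraries. Between DG1 and CG1 it was lower by DESeq2 (adjusted p = 0.01719) and in edgeR without DW1 replicate 2 (adjusted p = 0.03857). DN13180_c0_g5, a FAD2-type gene named here after its values were seen, was at 12.8 TPM in CG1 replicate 1 and 0 in replicates 2 and 3, and at 24.9, 10.9 and 1.85 TPM in DG1. In W1 it was at 0.24, 0.03 and 0 TPM in CW1 and at 0.03, 2.44 and 23.4 TPM in DW1, and its log2 fold change of 6.72 ± 2.67 (SE, adjusted p = 0.180, edgeR) was the largest of any tested member there.

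The 5 members that did not pass the filter were 2 FAD2-type genes, 2 acetylenases and 1 stearoyl-ACP fragment. DN19200_c0_g3 had 25.6 TPM and DN19175_c0_g2 12.9 TPM in CG1 replicate 2, and DN15778_c0_g5 had 9.37 TPM there; in every other library these 3 were at 8.6 TPM or less. DN19200_c0_g4 reached 4.72 TPM in CW1 and 0.66 TPM at most elsewhere, and DN20387_c1_g10 reached 5.28 TPM. The 20 tested members outside the rule for named genes, 14 of them FAD2-type or acetylenase genes, had group means of 0.09 to 60.02 TPM and log2 fold changes of -2.72 to 1.82 between DG1 and CG1, 16 of them negative. A further 13 genes carried a desaturase domain but not the terms used to choose the members, most of them ADS3-like; of the 12 tested, 6 fell and 0 rose between DG1 and CG1, beside the 12.3% and 11.5% of all genes tested. The falls were 3 without CG1 replicate 2, 4 without DG1 replicate 1 and 1 without both, where 8.82%, 9.29% and 6.32% of all genes tested fell.

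The genes around the family in lipid metabolism were read from 8 lists. No listed gene was called in the other comparisons of 2 groups or in the interaction, so calls are for DG1 against CG1. Between DW1 and CW1 only 0.771% of all genes tested rose and 0.799% fell. In plastid fatty acid synthesis, which builds the chains that the desaturases use, 9 of 15 tested genes fell and 0 rose, beside 12.3% and 11.5% of all genes tested, with a median log2 fold change of -0.68. They included ACP1 (DN18655_c0_g2, acyl carrier protein, -1.15 ± 0.19, adjusted p = 0.00328, edgeR), KAS1 (DN19627_c0_g2, a chain-extending synthase, -1.29 ± 0.21, adjusted p = 0.002778, edgeR) and MOD1 (DN19192_c1_g4, enoyl-ACP reductase, -3.64 ± 0.61, adjusted p = 0.0034, edgeR). The count was 5 without CG1 replicate 2, 6 without DG1 replicate 1 and 4 without both, where 8.82%, 9.29% and 6.32% of all genes tested fell. In W1 0 of the 15 were called, but 12 had negative values (11 in G1), with a median of -0.39. All DW1 libraries lay below all CW1 libraries in 7 genes, beside 13.7% of all genes tested. In G1 this held for 9 genes, beside 19.0%.

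In peroxisomal beta-oxidation, the breakdown of fatty acids, 6 of 18 tested genes rose and 0 fell, beside 11.5% and 12.3% of all genes tested. The genes that rose included the acyl-CoA oxidase ACX4 (DN13780_c0_g2, 1.16 ± 0.17, adjusted p = 0.002087, edgeR) and the multifunctional protein AIM1 (DN19551_c0_g1, 1.35 ± 0.30, adjusted p = 0.009762, edgeR). The rises were 6 without CG1 replicate 2, 3 without DG1 replicate 1, the library low in leaf genes, and 4 without both. In these fits 6.94%, 7.59% and 5.08% of all genes tested rose. In W1 0 of the 18 were called, but 16 had positive values, as in G1, with a median log2 fold change of 0.51 (0.74 in G1). All DW1 libraries lay above all CW1 libraries in 8 genes, beside 11.3% of all genes tested. In G1 this also held for 8 genes, beside 16.4%. Of the genes for acyl release and activation 6 of 14 rose and 1 fell, beside the same 11.5% and 12.3%. LACS6 (DN15939_c1_g1), a peroxisomal acyl-CoA synthetase, had a log2 fold change of 1.46 ± 0.26 (adjusted p = 0.004356, edgeR). The thioesterase gene FATA (DN16956_c0_g6), which frees oleate in the plastid, fell by 0.85 ± 0.18 on the log2 scale (adjusted p = 0.00907, edgeR). The 6 rises of this list became 4 without CG1 replicate 2, 3 without DG1 replicate 1 and 2 without both. Of all genes tested 6.94%, 7.59% and 5.08% rose in these fits. The list's median log2 fold change was 0.78 in G1 and 0.26 in W1.

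Among electron donors 3 of 15 tested genes fell and 1 rose. The counts of this list and of the 4 lists that follow are to be read beside the 12.3% of all genes tested that fell and the 11.5% that rose, to which several are close. The cytochrome b5 genes CYTB5-D (DN17644_c0_g7, -0.91 ± 0.19, adjusted p = 0.008995, edgeR) and CB5-A (DN14321_c1_g4, -0.61 ± 0.20, adjusted p = 0.04515, edgeR) were among those that fell. Without CG1 replicate 2, and likewise without DG1 replicate 1, 1 gene of this list was lower and 0 were higher. In the glycerolipid assembly of the endoplasmic reticulum 5 of 22 rose and 2 fell, among membrane lipid lipases 7 of 37 rose and 6 fell, and in galactolipid and sulfolipid synthesis 0 of 7 were called. Without CG1 replicate 2 these counts were 2 and 1 for glycerolipid assembly and 6 and 1 for the lipases, and without DG1 replicate 1 they were 3 and 2, and 3 and 5. Of all genes tested, 6.94% rose and 8.82% fell without CG1 replicate 2, and 7.59% and 9.29% without DG1 replicate 1.

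Oxylipin enzymes, which start from linoleate and linolenate, gave 4 genes that rose and 3 that fell of 37 tested, beside 11.5% and 12.3% of all genes tested. The plastid lipoxygenase LOX3.1 (DN20279_c1_g2, -3.91 ± 1.13, adjusted p = 0.03082, edgeR) and the jasmonate-pathway reductase OPR3 (DN18527_c0_g1, -3.27 ± 0.79, adjusted p = 0.01478, edgeR) were among those that fell, and the lipoxygenase LOX1.5 (DN19061_c0_g1, 2.11 ± 0.23, adjusted p = 0.0008518, edgeR) among those that rose. Without CG1 replicate 2 none of the falls was called. LOX3.1 was also the only listed gene called between cultivars averaged over both water states (3.95 ± 0.81 higher in G1, adjusted p = 0.0457, edgeR). Its level was 169 ± 161 TPM in CG1 and 1.90 ± 0.40 in CW1 (SD, n = 3). Under drought it was 12.3 ± 8.71 TPM in DG1 and 5.71 ± 2.74 in DW1. The gene was not called between cultivars in either water state alone.

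**Figure D5:**
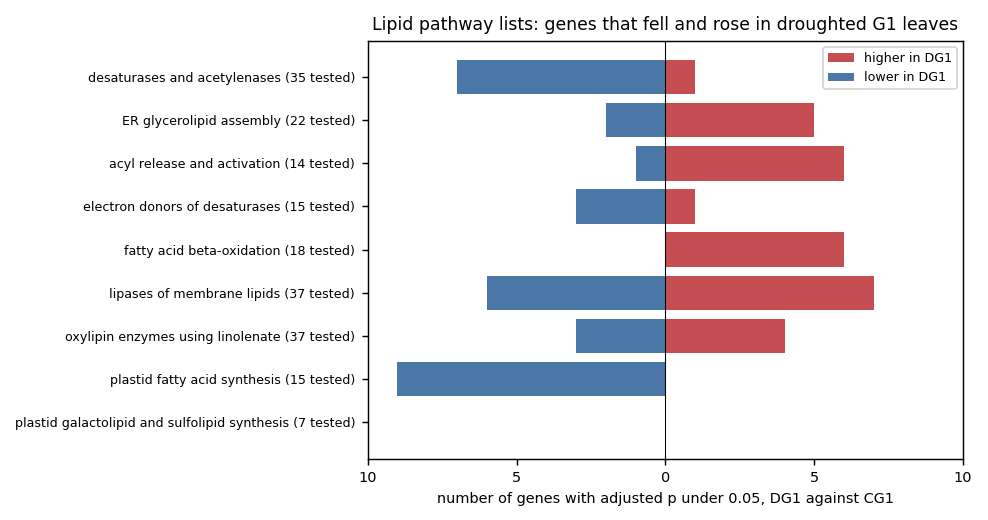
Number of genes called lower (left of 0, blue) and higher (right of 0, red) in DG1 than in CG1 for the desaturases and acetylenases and for 8 lipid pathway lists, with the number tested after each name. Plastid fatty acid synthesis has 9 lower and 0 higher, and beta-oxidation 0 lower and 6 higher.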

How the data were processed

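RNA of 12 leaf libraries was assembled with Trinity by the authors without a genome, and RSEM gave the deposited expected counts and TPM per gene; genes were annotated against protein databases. The labels also name a mouse genome build and other kits than the study's methods, and how mapping to a genome would enter is not given in the sources used here. Deposited expected counts were rounded. Genes were filtered with filterByExpr by group, leaving 29168, and fitted in edgeR 4.0.16 (R 4.3.3) with TMM and the quasi-likelihood test, 1 mean per group over all 12 libraries (8 residual degrees of freedom, common dispersion 0.217). P-values were adjusted by Benjamini-Hochberg over all genes tested; the threshold was 0.05. SE is the log2 fold change over the square root of F. Levels are the authors' deposited TPM, which is per length; a TPM share moves when other RNA in a library changes. Named genes were members called in any comparison, the 10 with the highest mean TPM and the highest of each role class, plus others said so. The members, marker lists and pathway lists were chosen with earlier results of these data known. Alternatives were DESeq2 1.42.0, RLE size factors, no filter, limma-trend (limma 3.58.1) on log2(TPM + 1), a replicate block, fits of 2 groups only and leaving out libraries. Groups followed the sample titles. The fit was also run on simulated counts. These had a lower dispersion than the data, the same for every gene, and no unusual library, so that run does not gauge the calls above. No sequence is printed.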

Additional observations from a re-analysis of the deposited data

How the results depend on the processing

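Counts of called members moved as follows, and those of all genes moved too. Between DG1 and CG1, the falls over all genes were 3583 in the main fit, 4741 with DESeq2, 2768 with limma-trend and 3375 with the replicate block. They were 2544 with 2 groups only and 1842 with CG1 replicate 2 and DG1 replicate 1 both left out. The rises over all genes were 3346 in the main fit, 2184 with no filter and 2191 with 2 groups only. Between DG1 and CG1 the 1 rise became 0 with no filter or with 2 groups only, the 7 falls were 10 with DESeq2, 8 with limma-trend, 8 with the replicate block, 5 with 2 groups only and 4 with CG1 replicate 2 and DG1 replicate 1 both left out (chosen after seeing the data); with single libraries left out, the rises ranged from 0 to 1 and the falls from 5 to 8. Between DW1 and CW1, DESeq2 gave 3 rises and 1 fall, and single libraries left out gave 0 to 1 fall. Between CG1 and CW1 the 1 gene higher became 12 with DESeq2, 2 with limma-trend and 0 with the replicate block, with 2 groups only or with both libraries left out, and 0 to 9 with single libraries left out (9 without CG1 replicate 1). Over all genes 110 were higher in the main fit, 951 with DESeq2, 174 with limma-trend and 912 without CG1 replicate 1. Only 20 were higher with the replicate block, 14 with 2 groups only and 36 with both libraries left out. Between DG1 and DW1, DESeq2 gave 1 lower. In the interaction DESeq2 gave 1 lower, and single libraries left out 0 to 3. The 3 came without CG1 replicate 1, where 285 of all genes were lower, against 4 in the main fit. Averaged over water states, DESeq2 gave 11 higher, no filter 1, limma-trend 1, and single libraries left out 0 to 5 (5 without CG1 replicate 1). Over all genes 216 were higher in the main fit, 1383 with DESeq2, 198 with no filter, 216 with limma-trend and 900 without CG1 replicate 1. With 2 groups only, the fall of DN17397_c0_g3 (edgeR adjusted p = 0.09501), the fall of DN17267_c1_g4 (0.05193) and the watered cultivar call of DN19175_c0_g4 (0.09671) were lost, and with the replicate block the last 2 were lost (0.07296 and 0.1145), while DN17913_c0_g3 (0.02105) and DN15776_c1_g3 (0.02456) were lower in DG1 than in CG1. RLE size factors changed no count of calls. No member value that was called changed direction. The limma-trend scale moved the median of all genes by -0.12 between CG1 and CW1, to -0.16, and by less than 0.1 in the other comparisons. Replicate numbers were not taken as pairs in the main fit. Deviations of same-numbered libraries correlated at -0.18 to 0.27 over 18 pairs, 3 of them over 0.1. Those of differently numbered libraries correlated at -0.19 to 0.15 over 36 pairs, 6 of them over 0.1. With 3 libraries per group these values cannot decide whether same-numbered libraries share an effect. The cause of the shifts between settings was not tested. Depth limits the short genes: the acetylenase DN17267_c1_g4 had 0 to 6 counts in each CW1 library.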
